A study of Drosophila melanogaster with 6 samples.

Results

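The genes described here are the posterior selector genes engrailed (en) and invected (inv) and the core Hedgehog pathway genes hedgehog (hh), patched (ptc), smoothened (smo) and cubitus interruptus (ci). They were chosen by symbol, and all 6 were found among the 16508 genes of each deposited table and passed the filter on low counts. The data are polyadenylated RNA of Drosophila melanogaster whole larvae at instar 3, from 3 libraries labelled crol-KO and 3 labelled wild-type, each made from 40 larvae and described by the submitters as biological repeats. The crol-KO flies carry a CRISPR/Cas9 deletion of crol (crooked legs), which encodes a zinc finger protein studied here for binding at Polycomb response elements, with a DsRed marker in its place. The deletion was made in y w flies that express Cas9 from the Actin5C promoter and lack DNA ligase 4, which were crossed to y w flies and kept over a CyO balancer marked with Tb and a w+ transgene. Crol protein from the mother may remain in such larvae. The wild-type larvae were of the Oregon strain. The groups thus differ in strain as well as in crol, and strain and crol cannot be told apart. Larval age within the instar and sex are not in the labels.

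In the epithelium of a Drosophila segment or imaginal disc, cells of the posterior compartment express en and inv, 2 neighbouring genes for closely related homeodomain proteins, which turn on hh and keep ci off. The secreted Hedgehog protein crosses into the anterior compartment and binds its receptor Ptc. This frees Smo, a membrane protein, from inhibition by Ptc, and Ci, the zinc finger transcription factor at the end of the pathway, then acts as an activator. Without the signal, Ci is phosphorylated by protein kinase A, casein kinase 1 and glycogen synthase kinase 3 (Sgg), and is cut to a repressor through the ubiquitin ligase component Slmb. ptc is itself a target of the pathway in anterior cells near the compartment border. The inv-en domain is a classical Polycomb target, and its response elements were among the sites at which the study examined Crol binding.

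Genotypes were read from the sample titles and the genotype tag. The deposited tables are named for the opposite genotype, so each direction below holds only as far as the labels do. The knocked-out gene, crol, was measured at 42.8, 39.1 and 37.0 normalized CPM (counts per 1000000 after scaling) in the libraries labelled crol-KO, against 63.3, 60.6 and 73.2 in those labelled wild-type. It was lower, but far from absent, with a log2 fold change of -0.73 (SE, standard error, 0.122, with an edgeR adjusted p of 0.0043), and -0.14 in the length correction described below. The eye colour gene w, mutated in the y w stocks of the knockout, had 15.2, 16.6 and 17.9 CPM in the libraries labelled crol-KO, against 0.817, 0.623 and 0.561 in those labelled wild-type. The level of w was thus the opposite of that in a plain w mutant set against wild-type larvae. This holds for the high level in labelled crol-KO and for the low level in labelled wild-type. Whether exchanged labels account for either level, or a w+ transgene for the high one, was not tested. Totals were between 23637969 and 49236787 expected counts per library. Among 12434 tested genes, 1685 (13.6%) passed both thresholds of the study (adjusted p under 0.05 and log2 fold change beyond 1 in size), 746 of them higher and 939 lower in labelled crol-KO, by the quasi-likelihood test of edgeR with Benjamini-Hochberg adjustment. That split depended on scaling, with 912 higher and 752 lower after upper-quartile normalization. At an adjusted p under 0.05 alone, 33.1% of genes passed. Replicate 2 labelled wild-type stood apart from the other libraries of its group for several long transcripts, and values without it are given where it decides a result.

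Of the 6 genes, hh was higher and ptc lower in labelled crol-KO by the adjusted p alone (under 0.05), while en, inv, smo and ci did not pass. None of the 6 passed the additional fold change threshold, against the 13.6% of all genes that did. At an adjusted p under 0.05 alone, 2 of 6 passed, which is close to the 33.1% of all tested genes. Library values did not overlap between the groups for 5 of the 6 genes, against 50.2% of all tested genes, and they were without overlap and lower in labelled crol-KO for 3 of the 6, against 26.5% of all tested genes. The median log2 fold change of the 6 genes was -0.11 and that of all tested genes -0.05.

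en, the posterior selector gene, had 4.01, 5.61 and 4.31 normalized CPM in the libraries labelled crol-KO, against 2.77, 3.50 and 3.70 in those labelled wild-type. All 3 values labelled crol-KO were above those labelled wild-type, and replicate 2 was the highest of them. The means were 4.64 ± 0.851 CPM in labelled crol-KO and 3.32 ± 0.488 CPM in labelled wild-type (SD, n = 3 each), a ratio of 1.40. The log2 fold change was 0.48 (SE 0.202) and did not pass (edgeR adjusted p = 0.099). en was the gene of fewest counts here, 87 to 215 per library.

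inv, the neighbour and partner of en, had 5.19, 5.77 and 5.004 CPM in the libraries labelled crol-KO, against 4.90, 7.58 and 4.35 in those labelled wild-type. The groups overlapped, since replicate 2 labelled wild-type was above all other libraries and the remaining wild-type values were below all of those labelled crol-KO. The log2 fold change was -0.08 (SE 0.224, edgeR adjusted p = 0.81). Its sign rested on replicate 2 labelled wild-type, without which it was 0.24 (SE 0.154, edgeR adjusted p = 0.28), and it was 0.05 after upper-quartile normalization. The expected counts of en were fractional (more than 0.005 from a whole number) in 5 of 6 libraries, those of inv and smo in 3 and those of ci in 2, as arises when RSEM divides reads among alternative sources, whereas those of hh and ptc were whole in all 6.

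hh, which encodes the ligand, had 15.2, 13.0 and 11.3 CPM in the libraries labelled crol-KO, against 8.35, 7.48 and 7.55 in those labelled wild-type. The lowest library labelled crol-KO lay well above the highest labelled wild-type. Means were 13.2 ± 1.92 CPM in labelled crol-KO and 7.79 ± 0.485 CPM in labelled wild-type (SD, n = 3 each), 1.69 times as high. The log2 fold change was 0.76 (SE 0.142, edgeR adjusted p = 0.0065), higher than that of 89.9% of tested genes. Leaving out any single library kept it between 0.65 and 0.86, with an adjusted p between 0.0089 and 0.023 from the same test. The exact permutation test over 3 against 3 libraries gave p = 0.10 (two-sided), the smallest it can give, as it did for en, ptc, smo and ci.

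ptc, the gene of the Hedgehog receptor, moved the other way. It had 9.28, 10.7 and 8.17 CPM in the libraries labelled crol-KO, against 15.8, 22.4 and 12.3 in those labelled wild-type. The groups did not overlap, and replicate 2 labelled wild-type was the highest library, as it was for inv. Means were 9.38 ± 1.25 CPM in labelled crol-KO and 16.8 ± 5.17 CPM in labelled wild-type (SD, n = 3 each), a ratio of 0.557. The log2 fold change was -0.84 (SE 0.224, edgeR adjusted p = 0.025). It depended more on single libraries than that of hh did. Without replicate 2 labelled wild-type it was -0.54 (adjusted p = 0.042), and without replicate 1 or 3 labelled crol-KO or replicate 1 labelled wild-type the adjusted p was 0.064, 0.091 and 0.057 from the same edgeR test.

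The genes of the signal transducer and of the transcription factor differed little. smo had 14.0, 13.6 and 13.4 CPM in the libraries labelled crol-KO, against 15.3, 15.6 and 16.6 in those labelled wild-type. ci, the most abundant of the 6 transcripts, had 38.5, 40.1 and 39.1 CPM in the libraries labelled crol-KO, against 43.3, 42.1 and 44.9 in those labelled wild-type. Values labelled crol-KO lay below all those labelled wild-type for both, by ratios of the means of 0.864 for smo and 0.904 for ci. The log2 fold changes were -0.21 for smo (SE 0.102, adjusted p = 0.15) and -0.15 for ci (SE 0.0984, edgeR adjusted p = 0.28), and both changed sign in the length correction described below.

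**Figure D1:**
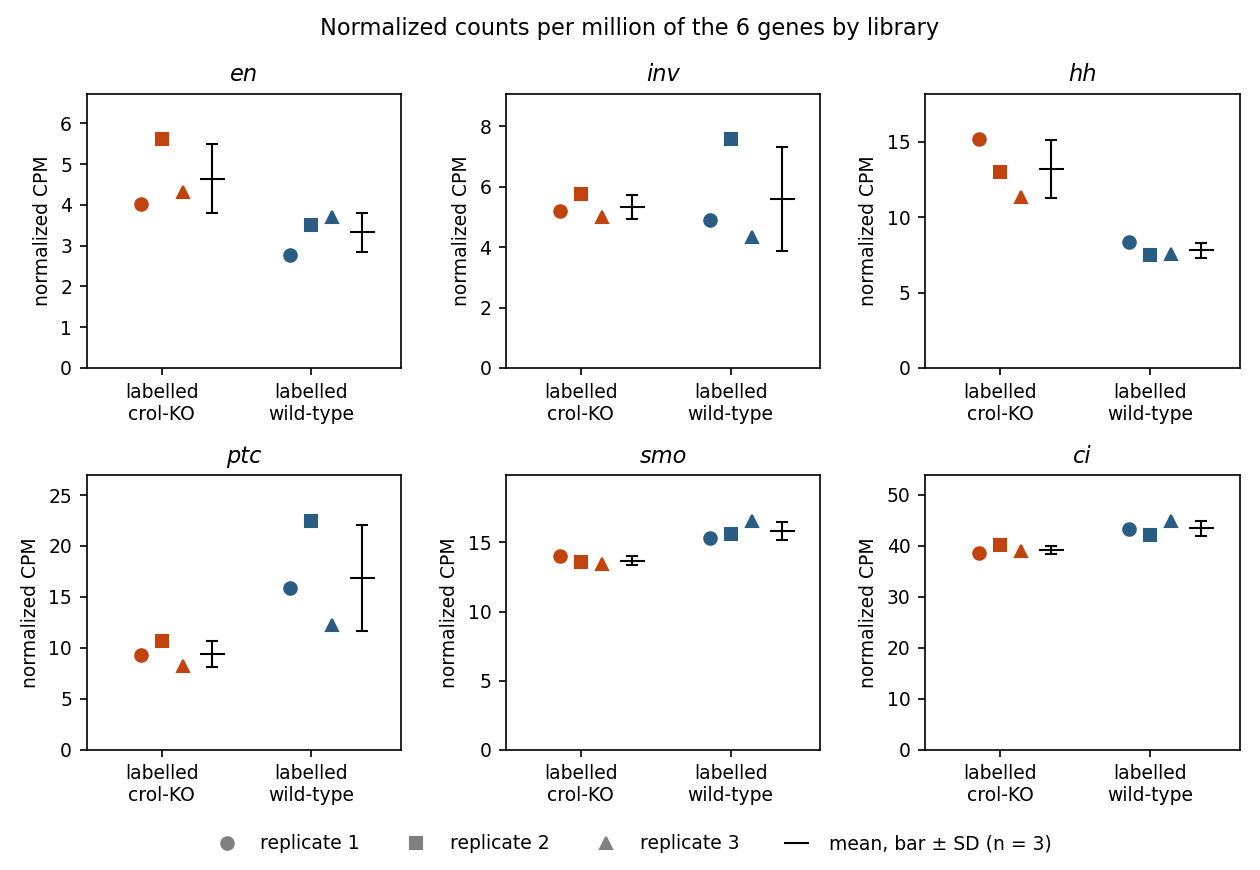
Normalized CPM (vertical axes, from 0) of the 6 genes in each library, with the 3 libraries labelled crol-KO to the left of the 3 labelled wild-type. Symbols are replicates and the bar gives the mean ± SD (n = 3). For hh the points labelled crol-KO (11.3 to 15.2) lie above those labelled wild-type (7.48 to 8.35), for ptc they lie below (8.17 to 10.7 against 12.3 to 22.4), and only inv overlaps.

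Transcript length moved with the difference between the groups. Across the tested genes, log2 fold change fell with mean transcript length (Spearman's rho -0.37; genes do not count as replicates). Genes of 2000 to 3000 bases, the class of en, inv and hh, had a median log2 fold change of -0.08. The median was -0.47 for 4000 to 5000 bases, the class of smo and ci, and -0.65 for 5000 to 6000 bases, the class of ptc. With the trend of each library over length removed as an offset in the edgeR fit, 32.8% of genes passed an adjusted p under 0.05. hh then had a log2 fold change of 0.83 (SE 0.118, adjusted p = 0.0016) and ptc one of -0.18 (SE 0.141, adjusted p = 0.35), so that the higher level of hh held with this correction and the lower level of ptc did not pass. The values of en and inv were 0.59 (adjusted p = 0.060) and -0.01 (adjusted p = 0.98), and those of smo and ci turned to 0.18 and 0.38 (edgeR adjusted p = 0.33 and 0.13). What underlies the trend was not tested, and the correction may also take away differences of long transcripts that belong to the larvae.

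**Figure D2:**
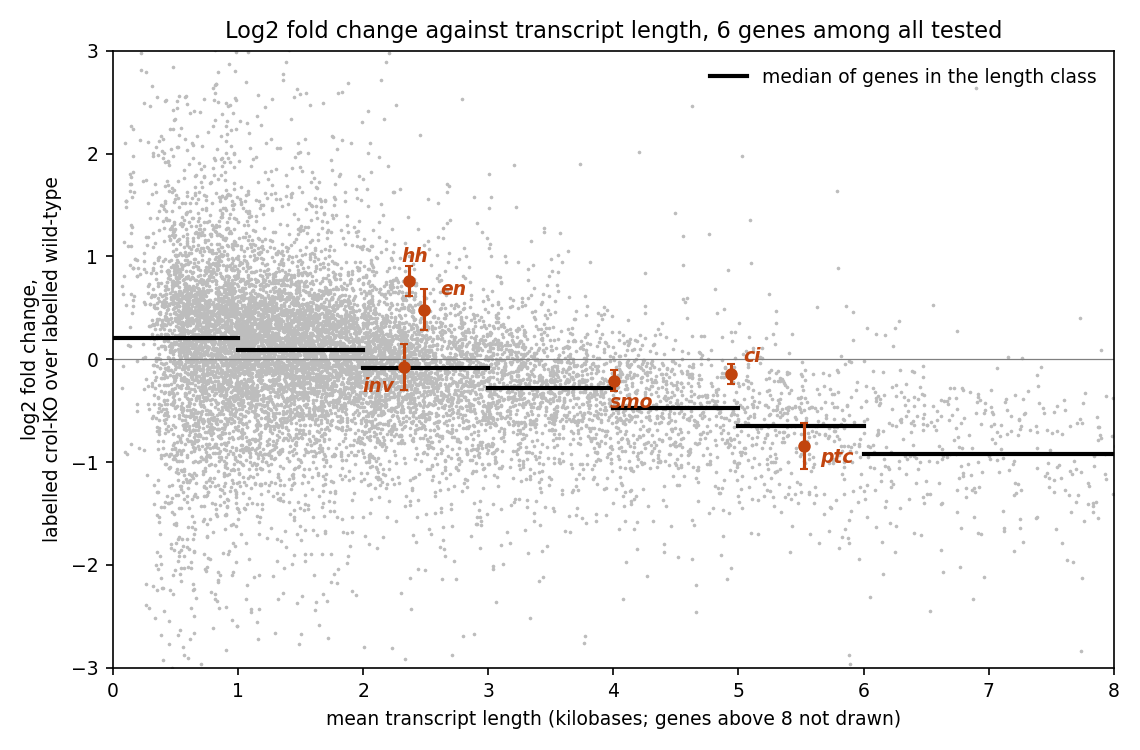
Log2 fold change of labelled crol-KO over labelled wild-type (vertical axis) against mean transcript length in kilobases (horizontal axis) for the tested genes up to 8 kilobases (grey points; changes beyond 3 in size are not drawn), with the median of each length class as a black line and the 6 genes in orange with their standard errors. hh (0.76) and en (0.48) lie above the median of their class (-0.08), inv lies at it, ci (-0.15) lies above that of its class (-0.47), and ptc (-0.84) lies near that of its class (-0.65).

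The scale of the values mattered as well. On the authors' TPM scale, which is per transcript length and sums to 1000000 in each library, the median log2 fold change of all tested genes was itself -0.48 with limma on log2(TPM + 1). hh had a log2 difference of 0.06 on that scale (adjusted p = 0.80 from limma), en -0.11, inv -0.48, smo -0.68, ci -0.72 and ptc -0.995. smo, ci and ptc passed an adjusted p under 0.05 there, and hh did not. Relative to the median of all genes in that setting, the differences were 0.54 for hh, 0.37 for en, -0.19 for smo, -0.24 for ci and -0.51 for ptc. With edgeR and TMM scaling, the same relative values were 0.81, 0.54, -0.16, -0.09 and -0.79. hh, en, smo, ci and ptc thus kept their direction relative to that median on both scales, while the absolute direction of en did not hold on the TPM scale. In the length correction the relative values were 0.84 for hh, 0.60 for en, 0.19 for smo, 0.38 for ci and -0.17 for ptc. In bulk RNA of whole larvae, fewer cells that express a gene and less RNA per cell cannot be told apart.

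**Figure D3:**
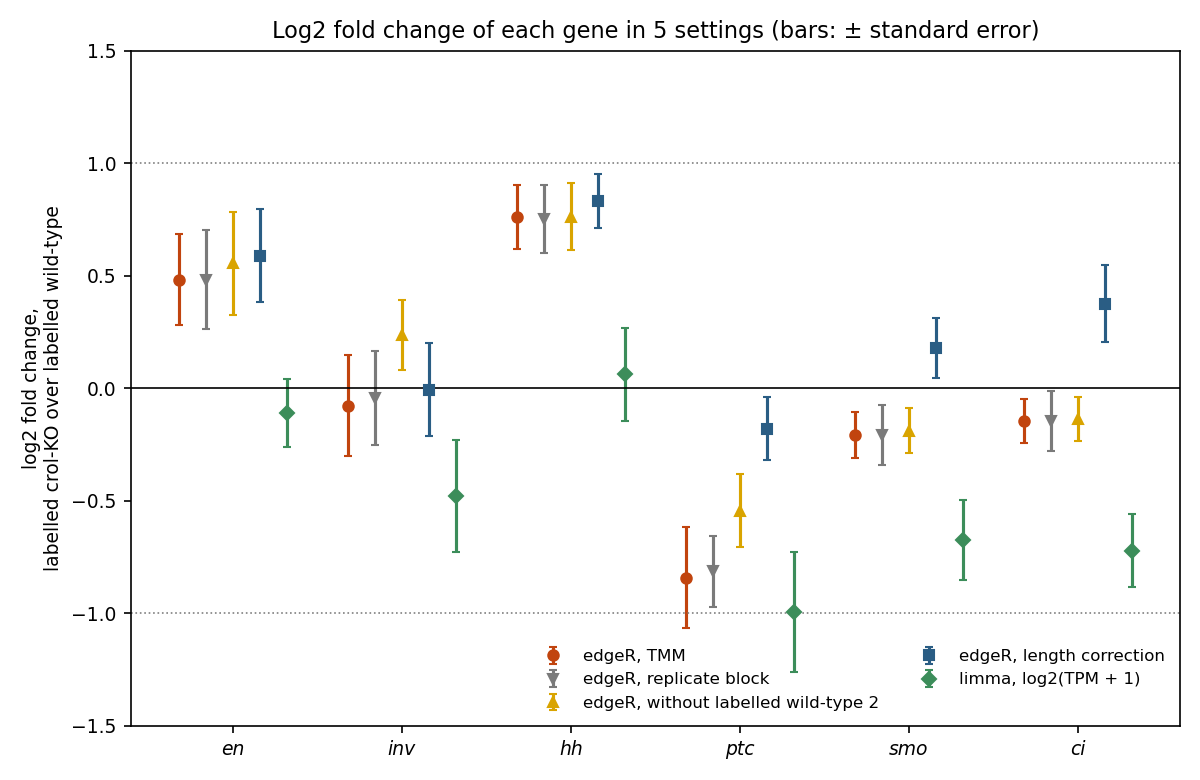
Log2 fold change of labelled crol-KO over labelled wild-type (vertical axis) for each gene in 5 settings, with bars of ± the standard error and dotted lines at the fold change threshold. hh lies between 0.75 and 0.83 in the 4 edgeR settings and at 0.06 on the TPM scale, ptc lies between -0.995 and -0.18, and the signs of en (TPM scale), inv (without labelled wild-type replicate 2), smo and ci (length correction) change between settings.

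TPM allowed the genes to be compared with one another. In the libraries labelled crol-KO the order of mean levels was ci (5.57 ± 0.630 TPM), hh (4.01 ± 1.02), smo (2.41 ± 0.368), inv (1.64 ± 0.153), en (1.32 ± 0.0808) and ptc (1.19 ± 0.150; SD, n = 3 each). Library values of ci and hh overlapped there, as did those of en and ptc, and the other neighbours in this order did not. In the libraries labelled wild-type the order was ci (9.87 ± 1.41 TPM), smo (4.45 ± 0.681), hh (3.76 ± 0.634), ptc (3.55 ± 1.70), inv (2.82 ± 1.303) and en (1.52 ± 0.342; SD, n = 3 each). There ci was above all others in each library, and each other gene overlapped the next in the order. ptc was thus last in labelled crol-KO and the fourth in labelled wild-type, and hh was ahead of smo in labelled crol-KO and behind it in labelled wild-type.

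A ratio of 2 genes within a library does not depend on how the library was scaled. The ratio of ptc to hh, receptor to ligand, was 0.258, 0.346 and 0.304 by TPM in the libraries labelled crol-KO, against 0.797, 1.26 and 0.686 in those labelled wild-type. The groups lay far apart, and the log2 ratio was lower by 1.56 on average (log2 difference -1.56). This pair differs in length, 5521 bases for ptc and 2370 for hh, so the length trend enters the ratio. ptc to ci, a pair of more similar length added after the trend was seen, had ratios of 0.216, 0.238 and 0.187 in the libraries labelled crol-KO, against 0.326, 0.476 and 0.244 in those labelled wild-type. These did not overlap either, by a small margin, with a log2 difference of -0.66.

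The other ratios overlapped between the groups. hh to en, ligand to selector, had ratios of 3.96, 2.42 and 2.74 in the libraries labelled crol-KO, against 3.13, 2.25 and 2.19 in those labelled wild-type. inv to en had 1.39, 1.11 and 1.24 in labelled crol-KO, against 1.90, 2.24 and 1.27 in labelled wild-type, so that inv was above en in each library. The ratio of ptc to smo was 0.479, 0.570 and 0.441 in labelled crol-KO, against 0.744, 1.04 and 0.536 in labelled wild-type. Exact permutation tests (two-sided) gave p = 0.10 for ptc to hh and ptc to ci, 0.20 for inv to en and ptc to smo, and 0.50 for hh to en (adjusted over the 5 ratios: 0.25 for all but hh to en, 0.50 for that), and 3 against 3 libraries cannot go below 0.10.

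**Figure D4:**
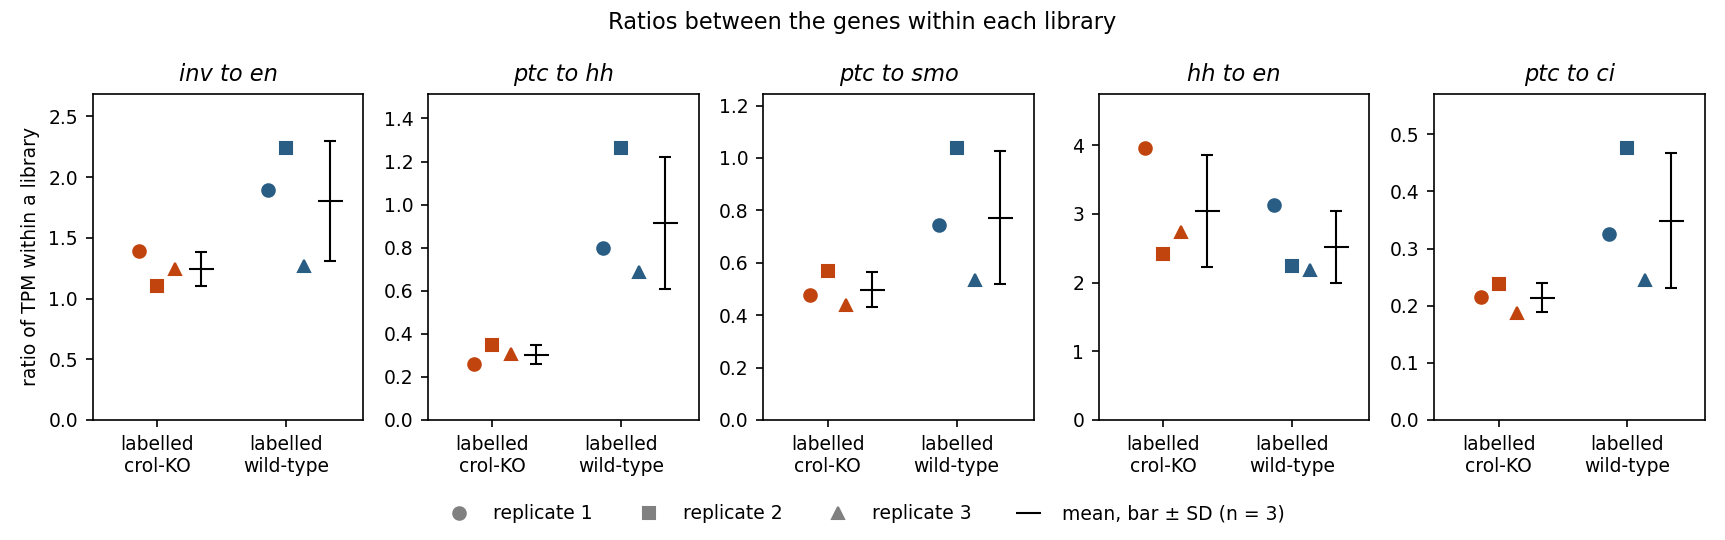
Ratio of TPM of 2 genes within each library (vertical axes, from 0), with the 3 libraries labelled crol-KO to the left of the 3 labelled wild-type, symbols as replicates and bars as mean ± SD (n = 3). The ratio of ptc to hh is 0.258 to 0.346 in labelled crol-KO and 0.686 to 1.26 in labelled wild-type, while inv to en, ptc to smo and hh to en overlap.

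The deposited length of a gene is a mean over its annotated transcripts weighted by their abundance in that library, so it moves when the isoforms shift. hh, ptc and smo have a single transcript in the tables and a fixed length. en, with 2 transcripts, had 2496, 2465 and 2465 bases in the libraries labelled crol-KO, against 2465, 2493 and 2539 in those labelled wild-type. inv, with 3, had 2315, 2300.2 and 2304 bases in labelled crol-KO, against 2299.7, 2408 and 2348 in labelled wild-type. The lengths of ci, also with 3 transcripts, stayed between 4939.6 and 4945 bases in all 6 libraries. The groups overlapped for all of these (exact permutation test, two-sided, p = 0.70 for en, 0.40 for inv and 0.30 for ci), in a design in which p cannot go below 0.10, so these values neither show a shift of isoforms nor show that there was none.

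en and inv lie next to each other on arm 2R, between E(Pc), an Enhancer of Polycomb, and tou (toutatis), in the Release 6 annotation. ptc is on the same arm, hh on 3R, smo on 2L and ci on chromosome 4. The flanking genes, named here after their values were seen, did not share the pattern of en. E(Pc) had 23.2, 21.1 and 18.2 CPM in the libraries labelled crol-KO, against 31.1, 54.8 and 26.0 in those labelled wild-type (log2 fold change -0.84, SE 0.267, edgeR adjusted p = 0.044). tou had 24.9, 23.4 and 23.8 CPM in labelled crol-KO, against 34.0, 79.6 and 30.2 in labelled wild-type (log2 fold change -1.0002, SE 0.343, edgeR adjusted p = 0.056). Replicate 2 labelled wild-type was the highest for both. Without it the log2 fold changes were -0.42 and -0.39 (edgeR adjusted p = 0.043 and 0.020), and in the length correction they were 0.15 and 0.07.

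A list of 35 further genes, the pathway genes grouped by role below and the 2 flanking genes, was tested in full. Of these, 6 were called lower and 0 higher at both thresholds, against 7.55% of all genes called lower. At an adjusted p under 0.05 alone, 14 were lower and 1 higher, where 17.8% of all genes were lower and 15.3% higher. Their median log2 fold change was -0.41, against -0.05 for all tested genes. With each library left out in turn, dally, Pka-C1, CkIalpha, sgg, rdx and vn kept an adjusted p under 0.05. The other genes that had passed, which were rasp, dlp, Gprk2, gish, slmb, nej, cg, wg and E(Pc), missed it without at least 1 library labelled crol-KO, with highest adjusted p-values between 0.059 for gish and 0.14 for E(Pc) by edgeR. In the length correction the median was 0.04, with 2 genes called lower at both thresholds (5.68% of all genes were called lower, and 10.7% in either direction). At an adjusted p under 0.05 it had 7 lower and 5 higher, where 16.2% of all genes were lower and 16.7% higher. The 7 were the kinase genes CkIalpha, Pka-C1, sgg and gish together with rdx, vn and wg, and the 5 were rasp, disp, ihog, Smurf and Usp8.

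Kinases that phosphorylate Ci or Smo made up 3 of the 6 called genes. Of the 4 listed kinase genes, 3 were called lower at both thresholds, against 7.55% of all tested genes. All 4 fell at an adjusted p under 0.05, against 17.8% of all tested genes. All 4 kept an adjusted p under 0.05 in the length correction, where 16.2% of all tested genes were lower. CkIalpha, a casein kinase 1 gene, had 27.5, 22.3 and 27.1 CPM in the libraries labelled crol-KO, against 117.8, 112.8 and 106.6 in those labelled wild-type. That is a ratio of 0.228 and a log2 fold change of -2.13 (SE 0.129, adjusted p = 7.0e-05), with -2.003 in the length correction. Pka-C1, the catalytic subunit of protein kinase A, had 41.8, 33.4 and 31.9 CPM in labelled crol-KO, against 89.1, 110.1 and 92.2 in labelled wild-type. sgg, glycogen synthase kinase 3, had 46.0, 33.0 and 40.3 CPM in labelled crol-KO, against 100.2, 126.9 and 87.2 in labelled wild-type. Their log2 fold changes were -1.44 and -1.40 (adjusted p = 6.4e-04 and 0.0015), and -0.90 and -0.99 in the length correction, under the fold change threshold. gish, another casein kinase 1 gene, had a log2 fold change of -0.68 (edgeR adjusted p = 0.014). These kinases act in other pathways too, and their values are those of whole larvae.

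The genes of ubiquitin ligases and related proteins were mixed. rdx (roadkill), an adaptor that targets Ci for degradation and is itself a Hedgehog target in discs, had 18.4, 14.1 and 18.7 CPM in the libraries labelled crol-KO, against 48.9, 58.6 and 48.5 in those labelled wild-type. Its log2 fold change was -1.61 (SE 0.150, edgeR adjusted p = 4.0e-04), and -1.41 in the length correction, so that rdx and CkIalpha were the 2 genes called with that correction. slmb had a log2 fold change of -0.41 (edgeR adjusted p = 0.031). Cul1, Cul3, Smurf and Usp8 did not pass.

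Upstream of reception, most genes did not pass. rasp, the acyltransferase that adds palmitate to Hedgehog, was the only one of the 35 genes to rise at an adjusted p under 0.05, with 21.1, 24.9 and 24.2 CPM in the libraries labelled crol-KO, against 16.0, 14.9 and 18.5 in those labelled wild-type (log2 fold change 0.51, SE 0.127, edgeR adjusted p = 0.020), though the sign turned on the TPM scale (-0.15 with limma). The glypican genes dally and dlp fell, with log2 fold changes of -0.58 and -0.57 (edgeR adjusted p = 0.0080 and 0.014), and -0.17 and -0.21 in the length correction, where neither passed. disp, which releases the ligand, the heparan sulfate synthesis genes ttv, sotv and botv, the secreted factor shf and the co-receptor genes ihog and boi did not pass. Among the transducers fu, cos, Su(fu), Gprk2 and krz, Gprk2 alone passed, with a log2 fold change of -0.66 (edgeR adjusted p = 0.022).

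Of 6 genes known as Hedgehog targets in discs, vn and wg passed an adjusted p under 0.05, both lower. That is close to the 33.1% of all tested genes that passed in either direction, while 17.8% passed as lower. vn, a ligand of the EGF receptor, was called at both thresholds, with 2.24, 1.67 and 2.43 CPM in the libraries labelled crol-KO, against 3.82, 7.20 and 4.40 in those labelled wild-type (log2 fold change -1.297, edgeR adjusted p = 0.012). Without replicate 2 labelled wild-type it was -0.95, and in the length correction -0.73. wg, a Wnt ligand gene, had 2.85, 2.40 and 3.07 CPM in labelled crol-KO, against 4.41, 5.51 and 3.90 in labelled wild-type (log2 fold change -0.74, edgeR adjusted p = 0.026). Without replicate 2 labelled wild-type it was -0.56 and did not pass (edgeR adjusted p = 0.051). dpp, the BMP ligand gene induced by Hedgehog in the wing disc, had 5.63, 4.65 and 4.95 CPM in labelled crol-KO, against 5.40, 8.04 and 5.53 in labelled wild-type. The groups overlapped for dpp, and its log2 fold change of -0.32 did not pass (adjusted p = 0.24) and was 0.08 in the length correction. kn (collier) had 1.34, 1.41 and 1.63 CPM in labelled crol-KO, against 2.19, 2.73 and 1.71 in labelled wild-type (log2 fold change -0.61, edgeR adjusted p = 0.091). ara and caup did not pass.

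Both genes listed as regulators of ci passed at an adjusted p under 0.05, both lower (17.8% of all genes were), and neither passed in the length correction. nej, the CBP coactivator, had 28.5, 28.0 and 24.6 CPM in the libraries labelled crol-KO, against 43.7, 121.6 and 38.2 in those labelled wild-type. Its log2 fold change of -1.33 (SE 0.412, edgeR adjusted p = 0.041) rested on replicate 2 labelled wild-type. Without that library it was -0.57 (adjusted p = 0.0087), and without any 1 library labelled crol-KO the adjusted p was between 0.090 and 0.12 from the same edgeR test. In the length correction it was 0.04. cg (combgap), which regulates ci in discs and is a Polycomb response element binding protein, had a log2 fold change of -0.56 (edgeR adjusted p = 0.039). It was -0.35 without replicate 2 labelled wild-type (edgeR adjusted p = 0.066) and -0.10 in the length correction (edgeR adjusted p = 0.38).

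**Figure D5:**
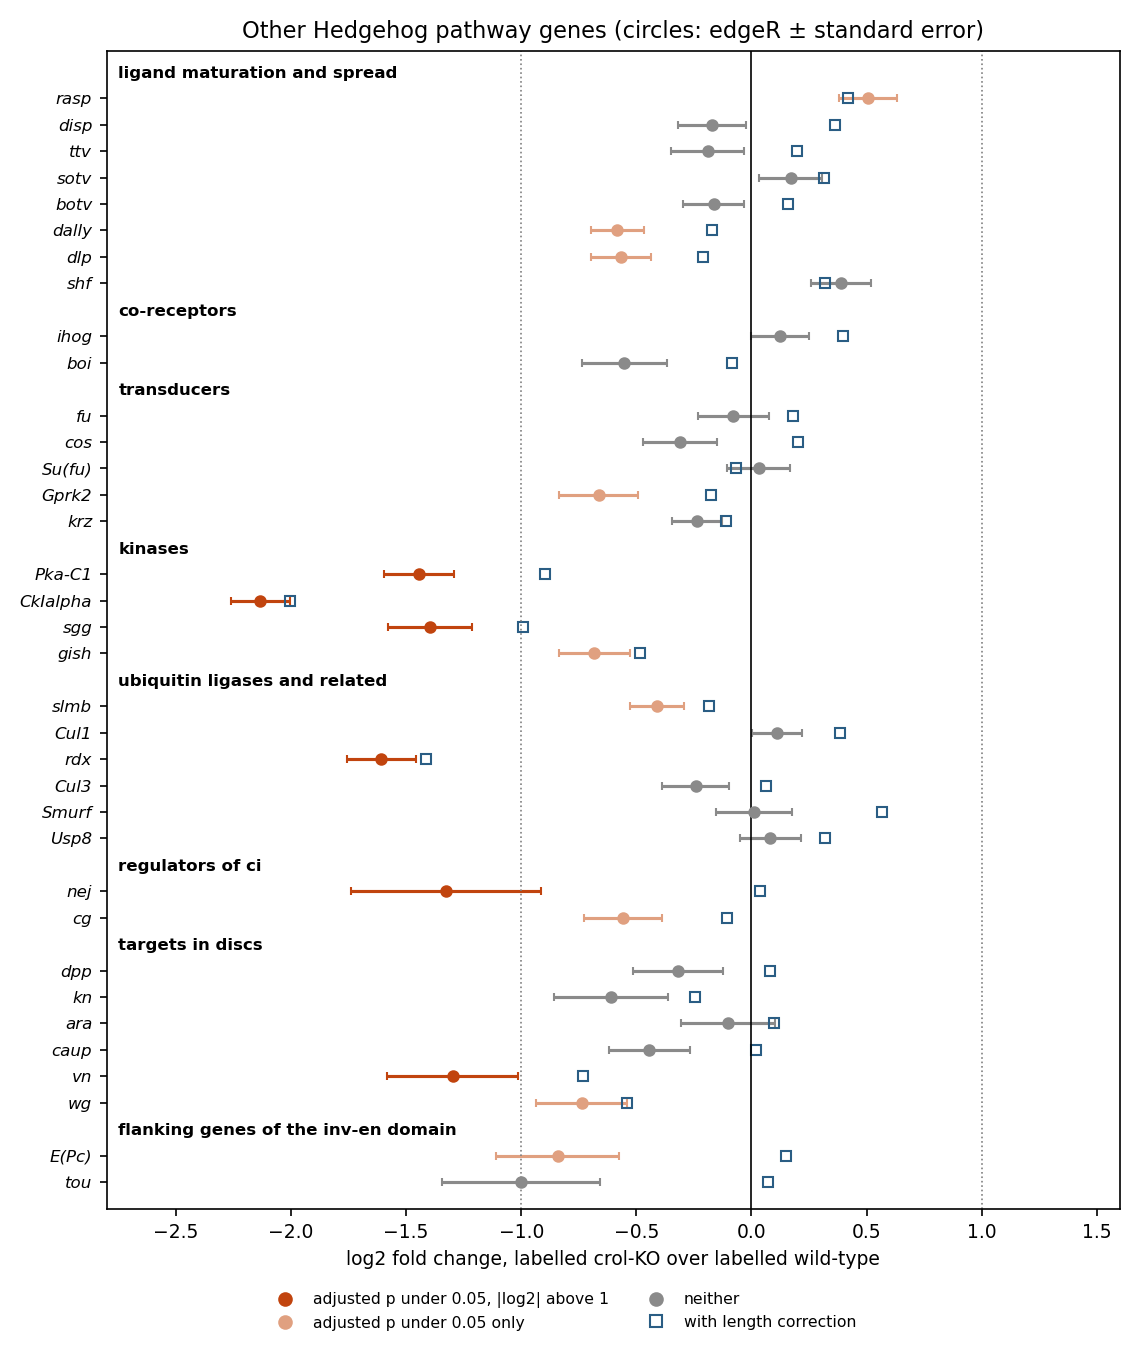
Log2 fold change of labelled crol-KO over labelled wild-type (horizontal axis) for the 35 listed genes by role (vertical axis), with circles for edgeR ± the standard error, colours for the thresholds passed, and open squares for the length correction. CkIalpha (-2.13) and rdx (-1.61) stand lowest and stay below -1 with that correction, while nej, dpp, E(Pc) and tou move from negative values to between 0.04 and 0.15.

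Markers of the tissues that could express these genes also differed between the groups. The summed level of 7 imaginal disc markers was 7.84 to 11.1 TPM in the libraries labelled crol-KO, against 14.4 to 26.9 TPM in those labelled wild-type. Of the 7, 2 were lower by edgeR at an adjusted p under 0.05 and 0 higher. Among all tested genes, 17.8% were lower and 15.3% higher at that threshold. In normalized CPM the 7 disc markers summed to 46.1 to 48.4 in labelled crol-KO, against 54.6 to 72.6 in labelled wild-type, a ratio of the means of 0.762. The 3 hindgut markers summed to 9.52 to 12.7 TPM in labelled crol-KO, against 17.3 to 30.0 TPM in labelled wild-type (2 lower; ratio in normalized CPM 0.771), and the 5 neuronal markers to 9.70 to 14.3 TPM, against 22.6 to 37.4 TPM (4 lower; ratio in normalized CPM 0.642). All 4 midgut markers were higher, with sums of 42712 to 51997 TPM in labelled crol-KO, against 20373 to 21542 TPM in labelled wild-type. Of 5 male germline markers, 3 were higher at both thresholds, namely aly, can and sa, with log2 fold changes of 1.78, 1.24 and 1.497. The markers mia and betaTub85D, the latter the most abundant of the 5, did not pass. Their log2 fold changes were 0.22 and -0.46 (edgeR adjusted p = 0.35 and 0.36). Summed levels of all 5 overlapped between the groups (30.9 to 38.8 CPM in labelled crol-KO, against 21.7 to 50.0 CPM in labelled wild-type). Of 4 neuroblast markers 0 were lower and 1, dpn, was higher at an adjusted p under 0.05. The TPM sums of 4 fat body, 4 tracheal and 4 hemocyte markers were also lower in labelled crol-KO without overlap. In normalized CPM these sums overlapped. By edgeR at an adjusted p under 0.05, 2 fat body, 1 tracheal and 2 hemocyte markers were lower, and 1 fat body marker was higher. Sums of 5 muscle and 5 salivary gland markers overlapped on both scales, with 1 muscle marker higher at that threshold. None of these markers was at 0. In the length correction, 0 of the 7 disc markers, 1 of the hindgut markers and 1 of the neuronal markers passed as lower, and all 4 midgut markers, 3 of the male germline markers and 2 of the neuroblast markers passed as higher. With that correction, 16.2% of all tested genes were lower and 16.7% higher at an adjusted p under 0.05. hh was thus higher by edgeR in libraries in which disc and hindgut markers were lower or did not pass and midgut and some male germline markers were higher, and ptc was lower in them. Their part in either result was not tested.

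For each of the 6 genes, the genes of most similar pattern were taken as the 2 with the highest Pearson correlation of log2 normalized CPM over the 6 libraries, among the 10956 genes averaging 1 CPM or more. They were CG9175 (r = 0.98) and por (0.97) for en, Cap-G (0.97) and mus81 (0.97) for inv, CG33506 (0.998) and CG14695 (0.996) for hh, l(1)G0222 (0.998) and Su(z)12 (0.995) for ptc, CG32187 (0.997) and CG11370 (0.994) for smo, and CG6812 (0.999) and CG13795 (0.998) for ci. The 6 libraries share a split into 2 groups, as well as their depths, and the points of each correlation are not independent of that split. Of the 12 genes, CG14695 alone was called at both thresholds (log2 fold change 1.13, edgeR adjusted p = 0.0034). It had 8.17 ± 1.58 CPM in labelled crol-KO and 3.76 ± 0.275 CPM in labelled wild-type (SD, n = 3 each).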

How the data were processed

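Libraries were made with the NEBNext Ultra II Directional kit from polyadenylated RNA. The authors trimmed reads (Trim Galore 0.6.1), aligned them to dm3 (STAR 2.7.3a) and ran RSEM 1.3.2 per library, which gave the deposited expected counts, not scaled to depth, and the deposited TPM. Per the file headers, length and effective length (unit: bases) stand beside them. The strand setting and whether a count is a read pair are not given in the sources used here. The FPKM column was not used. After rounding of expected counts, edgeR 4.0.16 (R 4.3.3; TMM, quasi-likelihood test, no block) was run on the 12434 genes that reached 10 counts in 3 or more libraries, with Benjamini-Hochberg adjustment. The standard error is the log2 fold change over the square root of F. DESeq2 1.42.0, limma 3.58.1 on log2 TPM with pseudocounts of 1 and 0.1, other scalings and filters, a replicate block, each library left out and a length correction (lowess, span 0.3) were alternatives. The fits were tested on simulated data. With a true log2 fold change of 0.75 in size, edgeR passed 16.4% of changed genes at an adjusted p under 0.05. With 1.5 it passed 88.1%. A gene that did not pass may therefore still differ. Few genes were changed in the simulation (67 of 12312 at each of these sizes), and it held no length trend. These shares need not hold for the data. P-values measure the spread between these samples.

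The genes, the lists and the tests were chosen with earlier results of these data known. Named genes are the 6 genes, crol, w, listed pathway genes called at both thresholds, dpp, kn, wg and the 2 genes of most similar pattern, and other listed genes were named after their values were seen. Symbols were matched to current ones by RefSeq transcript for sotv (Ext2 in the tables), Smurf (lack) and Usp8 (Ubpy). No coordinates are given because the annotation is Release 6 and the files use dm3. No sequences are shown.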

Additional observations from a re-analysis of the deposited data

How the results depend on the processing

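The number of genes called was between 1291 and 1978 with each library left out, 3386 with limma on log2(TPM + 0.1) and 4112 with no fold change threshold. Of the 6 genes, 0 were called with any library left out, 1 with limma on log2(TPM + 0.1) and 2 with no fold change threshold. Those of the 6 past an adjusted p under 0.05, a count added after seeing the data as was the ratio of ptc to ci, numbered 1 to 2 with each library left out and 1 in the length correction (hh in each case of 1). Of the 35 listed genes, flanking genes included, 4 to 7 were called with each library left out and 11 with limma on log2(TPM + 1). With limma on log2(TPM + 0.1) 16 were called, 2 in the length correction and 15 with no fold change threshold. Signs turned for en (-0.11 and -0.17) and rasp (-0.15 and -0.16) on the TPM scale (limma, pseudocounts 1 and 0.1). The sign of inv turned after upper-quartile normalization (0.045) and without wild-type replicate 2 (range over libraries left out -0.16 to 0.24). In the length correction signs turned for 2 of the 6 genes, smo (0.18) and ci (0.38), and for 13 of the 35 listed genes, 12 of them to higher, among them nej (0.037), E(Pc) (0.15), dpp (0.083), tou (0.071) and disp (0.36). hh and ptc kept their direction in each of 15 alternative fits, between 0.06 and 0.88 for hh and between -1.41 and -0.18 for ptc. The cause of these differences was not tested. The ratios and weighted lengths kept their direction with each library left out.

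Same-numbered libraries did not deviate together (mean correlation of deviations from the group means -0.11, against 0.05 for differently numbered ones). No pairing by number was thus seen, but with 3 libraries in a group these values cannot exclude it. With the replicate number as a block, 1491 genes and 0 of the 6 were called, and hh and ptc had log2 fold changes of 0.75 and -0.81 (edgeR adjusted p = 0.017 and 0.015). slmb, wg and cg missed an adjusted p under 0.05 with the block (0.086, 0.084 and 0.085 by edgeR). en was at 87 to 215 counts per library, the fewest of the 6, which limits what could be detected for it.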
